A study of Mus musculus with 70 samples.

Results

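The genes described here are 10 heat shock chaperones, taken by their symbols from gene count tables of B16F10 mouse melanomas: Hspa1a, Hspa1b, Hspa8, Dnajb1, Hsph1, Hsp90aa1, Hsp90ab1, Hspb1, Hspd1 and Hspe1. All 10 were found in each of the 4 tables, among 55487 gene lines, and all 10 entered the tests of every comparison. B16F10 is a transplantable melanoma cell line of C57BL/6 mice. Histotripsy is focused ultrasound that breaks up tissue mechanically, by cavitation.

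Male and female C57BL/6 mice of 6 to 8 weeks carried a tumor on each flank, and 1 of the flanks received a sham procedure or a partial histotripsy ablation. Control tumors came from sham-treated mice, histotripsy-treated tumors were the ablated ones, and histotripsy-abscopal tumors were the untreated tumors on the opposite flank of ablated mice. Tumors taken 3 or 7 days later were dissociated with enzymes at 37 °C in every group and sorted on CD45, the surface protein of blood-derived cells, into CD45+ (immune) and CD45- (tumor and stromal) cells. The 70 libraries fell into 12 groups. On day 3 the control, ablated and abscopal tumors gave 4, 7 and 7 CD45- libraries and 4, 6 and 7 CD45+ libraries, in that order. On day 7 they gave 11, 3 and 4 CD45- libraries and 10, 3 and 4 CD45+ libraries. Treatment was assigned without randomization. A histotripsy-treated and a histotripsy-abscopal library can come from the same mouse, and the labels do not tie the CD45+ and CD45- cells of a tumor to each other, so p-values measure the spread between libraries.

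Heat shock proteins bind unfolded protein and help it to fold, or pass it on for degradation. Hsp70 proteins work in cycles of ATP hydrolysis that J-domain proteins start and nucleotide exchange factors end, and they hand some clients to Hsp90. Most of these genes are switched on together by heat shock factor 1 (Hsf1) when unfolded protein accumulates, through arrays of the pentamer nGAAn in alternating orientation, while cognate forms are made in unstressed cells. Tissue dissociation at body temperature is itself known to induce several of these genes.

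Such arrays are the shared sequence feature of this family. The stretch around the start site was therefore read for the members whose arrays are described. RefSeq promoter windows (build GRCm38.p6) were used, which run from 250 bases before to 50 bases after each start. Capitals mark matches to 2 pairs of opposed pentamers, GAANNTTC and TTCNNGAA, which read the same on both strands and overlap where pentamers follow each other. The first 3 sequences end at the base before the start site, and the other 2 are 30-base windows around matches. Hspa1a is at chr17:34972157-34972306 (minus strand), Hspa1b at chr17:34959239-34959388 (minus strand), Hspb1 at chr5:135887769-135887918 (plus strand), Hspe1 at chr1:55088053-55088082 (plus strand) and Hsph1 at chr5:149636351-149636380 (minus strand).
Hspa1a: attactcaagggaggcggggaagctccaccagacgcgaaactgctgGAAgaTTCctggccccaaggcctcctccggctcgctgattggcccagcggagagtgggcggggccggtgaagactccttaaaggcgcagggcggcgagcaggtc
Hspa1b: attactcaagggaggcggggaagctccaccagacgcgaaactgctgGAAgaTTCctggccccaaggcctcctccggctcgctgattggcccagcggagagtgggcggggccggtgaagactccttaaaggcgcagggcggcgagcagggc
Hspb1: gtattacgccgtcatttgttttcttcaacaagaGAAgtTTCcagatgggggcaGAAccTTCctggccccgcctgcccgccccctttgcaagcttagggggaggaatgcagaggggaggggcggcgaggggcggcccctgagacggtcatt
Hspe1: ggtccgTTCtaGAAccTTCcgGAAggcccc
Hsph1: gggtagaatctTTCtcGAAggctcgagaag
Of the 10 members, 7 had a window (Hspa8, Hsp90aa1 and Hsp90ab1 had none), and 6 of these 7 held at least 1 match, against 15.1% of 32851 windows over the genome. Members are counted by gene and the genome by window, and the window of the first Hspd1 start held 0 matches. The near-identical Hspa1a and Hspa1b, and Hspd1 with Hspe1, are not independent cases. Runs of 3 or more alternating pentamers, seen as overlapping matches, were held by 0.603% of all windows and by 3 members, Hspd1, Hspe1 and Hsph1. The run of Hsph1 lies after the start site, at bases 37 to 49 of its first window, and is not printed. The printed stretch of Hsph1 holds a lone pair at bases -33 to -26. The run printed for Hspe1 is also that of Hspd1, since the window of the second Hspd1 start reads the same bases from the other strand. No match lay in the 2 windows of Dnajb1. The windows of Hspa1a and Hspa1b were identical at 296 of 300 bases (98.7%), and the printed stretches differed at 1 base. A match is a match of letters and no measure of binding.

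Total counts ran from 887798 to 3820705 per library. The sort could be read in the data: Ptprc, which encodes CD45, was at 0 to 1.48 counts per 1000000 (CPM) in CD45- and 651 to 1252 CPM in CD45+ libraries, and the melanosome gene Pmel was at 2409 to 4124 CPM in CD45- and 2.76 to 249.96 CPM in CD45+ libraries. Libraries differed in 2 other ways. The summed level of 5 fibroblast markers (Col1a1, Col1a2, Col3a1, Pdgfra, Dcn) exceeded 2000 CPM in 6 CD45- libraries, of which 4 were histotripsy-treated on day 3. The summed level of 7 melanoma markers exceeded 1000 CPM in 2 CD45+ libraries, both histotripsy-abscopal on day 3. Several results that rest on these 8 libraries are given with and without them.

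Levels are CPM, taken over the library total. Each transcript gives 1 tag at its 3′ end in this assay, so levels of different genes are not divided by length. The cytosolic Hsp90 pair dominated. Hsp90ab1, the constitutive form (chr17:45567775-45573271), averaged 5639 ± 693 CPM in CD45- (SD, n = 36) and 4531 ± 1013 CPM in CD45+ libraries (n = 34). Hsp90aa1, the inducible form (chr12:110690605-110702728), averaged 3258 ± 501 and 2041 ± 494 CPM. Together they held 72.4 to 85.5% of the members' counts in CD45- and 51.4 to 85.5% in CD45+ libraries. Hsp90ab1 was above Hsp90aa1 in every library, by 1.33 to 2.11 times in CD45- and 1.49 to 3.03 times in CD45+ cells.

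The Hsp70 family came out differently in the 2 fractions. Hspa8, the cognate Hsp70 of unstressed cells (chr9:40800984-40810087), averaged 386 ± 68.1 CPM in CD45- and 498 ± 97.5 CPM in CD45+ libraries. The stress-inducible genes Hspa1b (chr17:34956436-34959238) and Hspa1a (chr17:34969190-34972156) are neighbours with 9951 bases between them and encode nearly the same protein. Hspa1b averaged 222 ± 130 CPM in CD45- and 1032 ± 478 CPM in CD45+ libraries. Hspa1a averaged 5.88 ± 10.3 CPM, from 0 to 130 counts per library, in CD45- cells, and 1135 ± 515 CPM, from 622 to 5222 counts, in CD45+ cells. Hspa1a thus gave 0 to 19.97% (median 1.19%) of the counts of the pair in CD45- and 41.9 to 68.2% (median 51.3%) in CD45+ libraries, with no overlap. How reads shared by near-identical genes were counted is not given in the sources used here, so the division between the 2 genes is uncertain. Their sum ran from 69.6 to 638 CPM in CD45- and from 843 to 4761 CPM in CD45+ libraries, which did not overlap either. How many of all genes lack overlap between the fractions was not computed.

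The means of the Hsp70 co-chaperones were closer between the fractions. Dnajb1, the J-domain protein known as Hsp40 (chr8:83608193-83612653), averaged 292 ± 150 CPM in CD45- and 290 ± 91.8 CPM in CD45+ libraries. Hsph1, the Hsp110 nucleotide exchange factor (chr5:149614287-149636376), averaged 163 ± 50.3 and 214 ± 87.6 CPM. Hspb1, the small heat shock protein Hsp27 (chr5:135887919-135889563), was the lowest member of the CD45+ fraction at 12.4 ± 5.47 CPM and stood at 41.3 ± 16.7 CPM in CD45- cells.

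The mitochondrial pair was lower in CD45+ cells. Hspd1, the mitochondrial chaperonin Hsp60 (chr1:55077835-55088243), averaged 426 ± 70.1 CPM in CD45- and 89.6 ± 25.0 CPM in CD45+ libraries. Hspe1, its lid protein Hsp10 (chr1:55088132-55091307), averaged 624 ± 93.6 and 242 ± 54.3 CPM. The 2 genes lie head to head and overlap at their 5′ ends, away from the 3′ ends that were sequenced. Counts of Hspe1 exceeded those of Hspd1 in every library, by 1.16 to 1.91 times (median 1.47) in CD45- and 1.54 to 4.18 times (median 2.71) in CD45+ cells.

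Spread also separated the members. Over the 36 CD45- libraries the highest level of Hspb1, Dnajb1 and Hspa1b, at 82.5, 677 and 635 CPM, stood far above the lowest, at 16.9, 148 and 68.1 CPM. Hsp90ab1 ran only from 4593 to 8116 CPM and Hsp90aa1 from 2552 to 4332 CPM. In the order of means, each step from Hspd1 through Hspa8, Dnajb1 and Hspa1b to Hsph1 in CD45- cells was smaller than the larger SD of the neighbours over libraries. So were the steps between Hspa1a and Hspa1b, and from Dnajb1 through Hspe1 to Hsph1, in CD45+ cells.

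**Figure D1:**
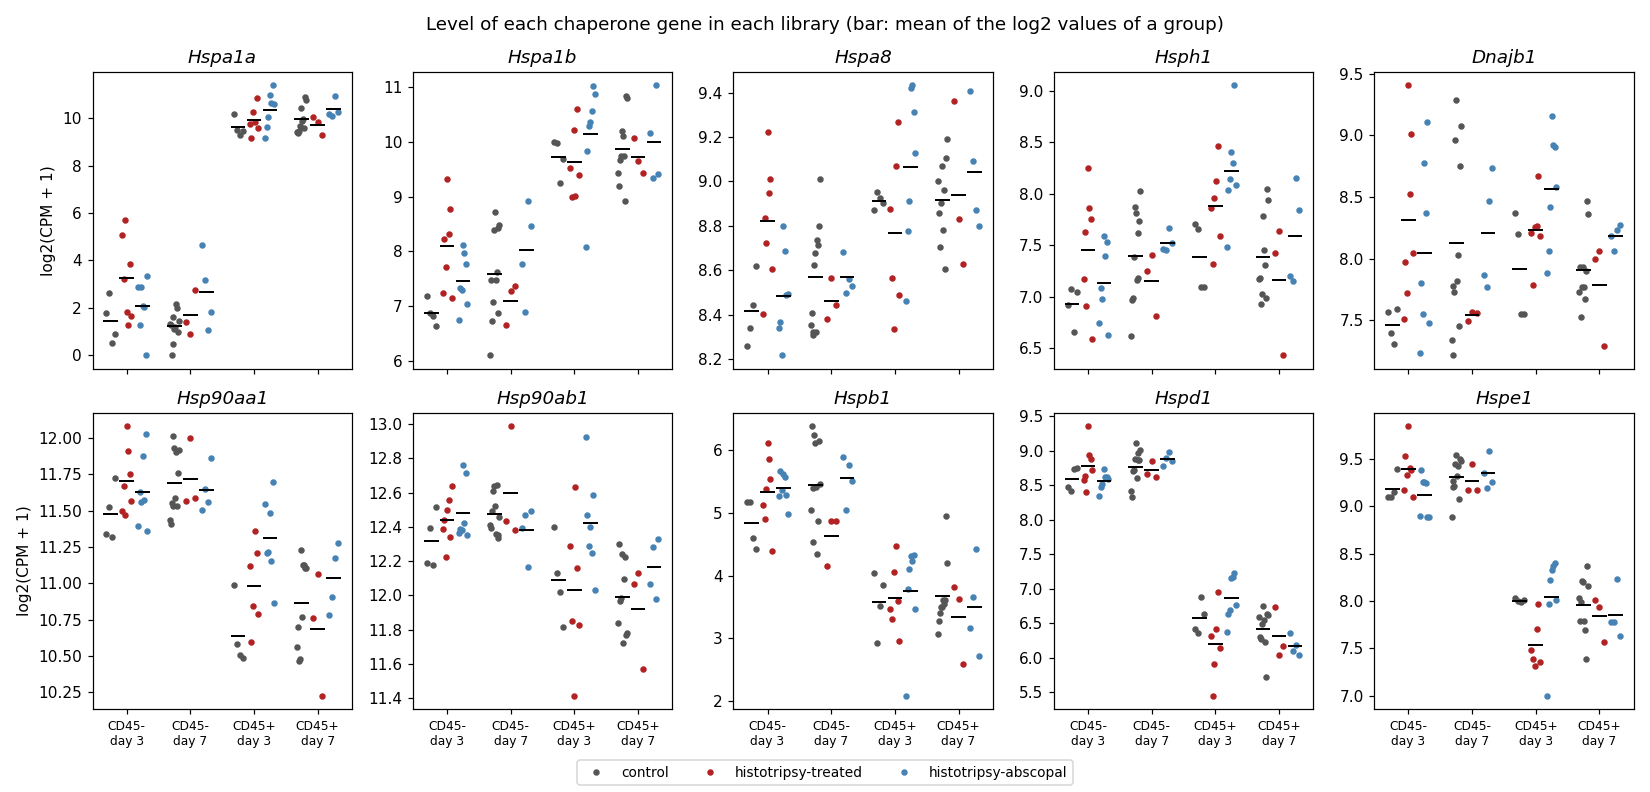
Level of each of the 10 genes in every library, as log2(CPM + 1), by group, with control, histotripsy-treated and histotripsy-abscopal libraries as points. Hspa1a lies at 0 to 51.9 CPM in CD45- and at 573 to 2700 CPM in CD45+ libraries, while the Hsp90 genes stay above 1000 CPM in all of them.

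The first comparison asked how the fractions differ within each treatment and day. Hspa1a and Hspa1b were higher in CD45+ cells in all 6 comparisons, as was Hspa8, and Hspd1 and Hspe1 were lower in all 6. The log2 difference of Hspa1a was between 6.43 ± 0.55 (SE; histotripsy-treated, day 3) and 9.66 ± 0.37 (control, day 7; adjusted p = 1.85e-24, edgeR quasi-likelihood test with Benjamini-Hochberg adjustment over all genes, as for every adjusted p of a comparison). That of Hspa1b was 1.91 to 3.08, and that of Hspa8 0.37 to 0.87. The log2 difference of Hspd1 was -1.42 to -2.45 and that of Hspe1 -0.78 to -1.45. Without the 4 histotripsy-treated CD45- libraries high in fibroblast markers, the day 3 value of Hspa1a in histotripsy-treated tumors was 9.44 in place of 6.43. Without the day 7 libraries high in those markers, its value was 9.48 in place of 8.60 in histotripsy-treated tumors. In histotripsy-abscopal tumors of day 7 it was 8.71 in place of 7.39. No CD45+ library reached the level of any CD45- library of its treatment and day for Hspd1 or Hspe1. The share of all genes separated in this way was not computed.

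The other members differed in some comparisons only. Hsph1 was called higher in CD45+ cells in the 3 comparisons of day 3 (0.65, 0.81 and 1.38 on the log2 scale, adjusted p = 0.0452, 0.00139 and 6.08e-07 for control, histotripsy-treated and histotripsy-abscopal) and in none of day 7 (0.22 to 0.39). Dnajb1 was called in histotripsy-abscopal tumors of day 3 alone (0.70 ± 0.26, adjusted p = 0.0165). Hspb1 was lower in CD45+ cells in 5 comparisons, with log2 differences of -1.15 to -1.77, and had a log2 difference of -1.12 in histotripsy-treated tumors of day 7 (adjusted p = 0.0554). Hsp90aa1 was called lower in control tumors of both days (-0.66 and -0.58) and histotripsy-treated tumors of day 7 (-0.81). Hsp90ab1 was called lower in control (-0.25) and histotripsy-treated tumors (-0.49) of day 7.

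Differences between fractions were the rule across the genome, so these counts carry little by themselves. On day 3, 4 members were called higher and 4 lower in control tumors, where 34.5% of all genes tested were higher and 30.6% lower. In histotripsy-treated tumors 4 were higher and 3 lower (39.9% and 37% of all genes), and in histotripsy-abscopal tumors 5 and 3 (39.8% and 35.3%). On day 7, 3 members were higher and 5 lower in control tumors (42.1% and 38.3%), 3 and 4 in histotripsy-treated tumors (34.3% and 31.3%), and 3 and 3 in histotripsy-abscopal tumors (35.9% and 33.7%). Scaling by library totals in place of TMM factors moved the median of all genes by -0.18 to -0.42 on the log2 scale. The members called higher and lower were then 3 and 4, 2 and 5, and 4 and 4 on day 3, and 3 and 5, 3 and 5, and 3 and 4 on day 7, in the same order of treatments. In histotripsy-treated tumors of day 3, where the shift was largest, Hspa8 went from 0.37 to -0.04 under that scaling, and Hsp90aa1, at -0.29 and uncalled (adjusted p = 0.0621), became -0.71 and called.

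**Figure D2:**
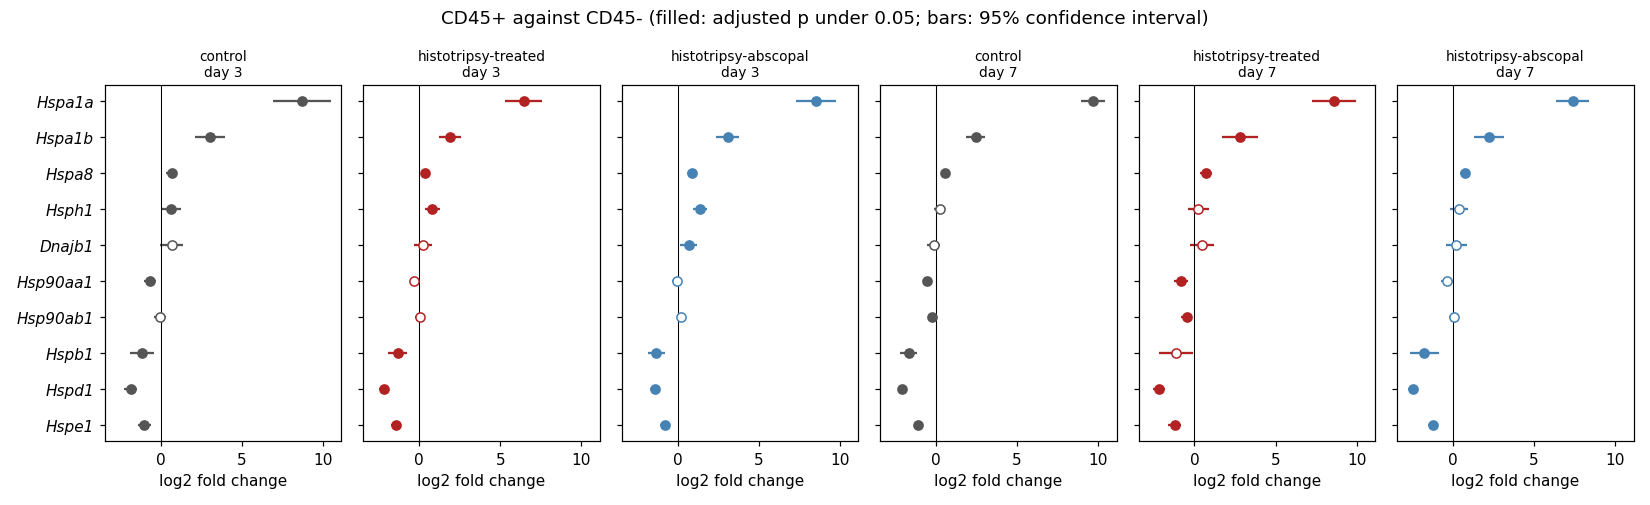
Log2 fold change of each gene between CD45+ and CD45- cells (x axis) in the 6 treatment and day groups, with 95% confidence intervals and filled points for adjusted p under 0.05. Hspa1a lies furthest to the right in all panels, at 6.43 to 9.66, and Hspd1 furthest to the left, at -1.42 to -2.45.

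The second comparison asked what histotripsy did to these genes in CD45- cells of the ablated tumor. On day 3 none of the 10 members passed the test, while without the filter on low counts 4 did (Hspa1b, Hspa1a, Dnajb1 and Hsph1). Histotripsy-treated libraries above every control numbered 6 of 7 for Hspa1b and Dnajb1, 5 for Hsph1 and Hspa8, 4 for Hspa1a and Hspb1, 3 for Hsp90aa1, Hspe1 and Hspd1, and 2 for Hsp90ab1. Such counts over all genes were not computed, here or below, so they carry little by themselves. Hspa1b was at 98.6, 112, 116 and 146 CPM in the control libraries. In the 7 histotripsy-treated libraries it was at 141, 151, 208, 300, 316, 438 and 635 CPM. The log2 difference was 1.39 ± 0.34 (95% confidence interval 0.68 to 2.09, 2.61-fold), with adjusted p = 0.149. The 7 histotripsy-abscopal libraries lay between, at 106 to 276 CPM with a median of 159 CPM, and overlapped both.

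Dnajb1 was at 157 to 192 CPM (median 178) in control, 181 to 677 CPM (median 263) in histotripsy-treated and 150 to 553 CPM (median 222) in histotripsy-abscopal libraries. Its log2 difference from control was 0.97 ± 0.35 in histotripsy-treated (adjusted p = 0.316) and 0.74 ± 0.35 in histotripsy-abscopal tumors (adjusted p = 0.959). Replicate 4 of the histotripsy-treated group was the highest library for Hspa1b, Dnajb1, Hsph1, Hsp90aa1, Hspa8, Hspe1 and Hspd1 among all CD45- libraries of both days.

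Hspa8 was at 305 to 392 CPM in control and 338 to 596 CPM (median 456) in histotripsy-treated libraries, a log2 difference of 0.42 ± 0.13 (adjusted p = 0.235). Hsph1 was at 99.97 to 134 CPM in control and 94.9 to 304 CPM in histotripsy-treated libraries, with 1 of 7 below every control (0.61 ± 0.24, adjusted p = 0.365). Hspb1 differed by 0.58 ± 0.25 in histotripsy-treated and by the same 0.58 ± 0.25 in histotripsy-abscopal tumors (adjusted p = 0.421 and 0.959). The 2 Hsp90 genes and the mitochondrial pair had the smallest differences, 0.11 to 0.23, all with intervals that included 0.

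Hspa1a gave the largest fold on few counts. It was at 0.431, 0.832, 2.47 and 5.17 CPM in control libraries and at 1.43, 2.16, 2.56, 8.36, 13.5, 32.6 and 51.9 CPM in histotripsy-treated libraries (2.88 ± 0.97 on the log2 scale, adjusted p = 0.277). The 4 highest of these 7 libraries were the 4 with fibroblast markers above 2000 CPM, at 2039 to 13238 CPM. Without them the log2 difference of Hspa1a was -0.14 (adjusted p = 0.974), while that of Hspa1b was 1.58 (adjusted p = 0.151) and that of Dnajb1 1.26 (adjusted p = 0.329). The summed fibroblast markers stood at 13.3 to 1036 CPM in control, 131 to 808 CPM in histotripsy-abscopal and 50.8 to 13238 CPM (median 2039) in histotripsy-treated libraries, and all 5 genes of the list were detected in each group. Their part in the difference of the other members was not tested. In sorted cell pools, fewer cells of a type and less RNA per cell cannot be told apart.

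All 10 members had a log2 difference above 0 between histotripsy-treated and control tumors, with a median of 0.50 against 0.01 for all 10921 genes tested. Of the 10, 0 were called by edgeR, by DESeq2 or by limma-voom, where 0.0916% of all genes were called by edgeR. An unadjusted p under 0.05 was reached by 6 members (Hspa1a, Hspa1b, Dnajb1, Hsph1, Hspb1, Hspa8) and by 10.6% of all genes. For histotripsy-abscopal against control the median of the members was 0.22, 0 were called by the 3 tools, 2 had an unadjusted p under 0.05 (Dnajb1, Hspb1; 5.19% of all genes), and 0% of all genes were called. These comparisons share the control libraries. Between histotripsy-treated and histotripsy-abscopal tumors 0 members were called by the 3 tools, where 0.147% of all genes were, and 5 had an unadjusted p under 0.05 (13.5% of all genes). Among these, Hspa1b differed by 0.72 ± 0.27 (adjusted p = 0.221) and Hspa8 by 0.32 ± 0.11 (adjusted p = 0.167).

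**Figure D3:**
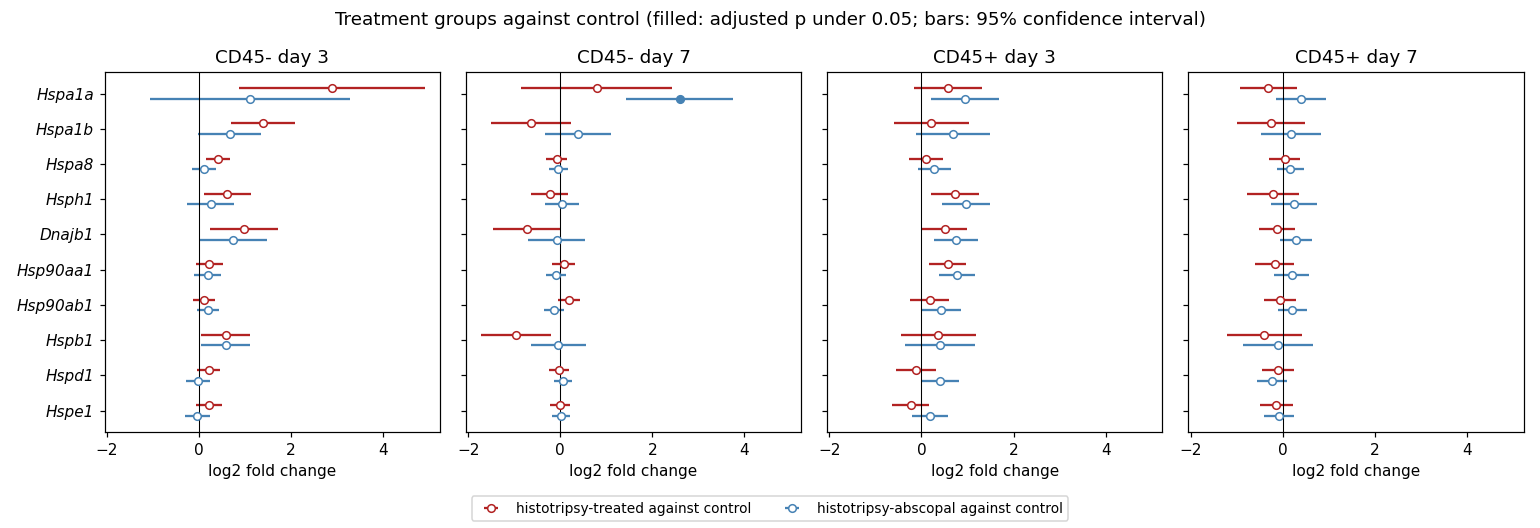
Log2 fold change of each gene against control (x axis) in histotripsy-treated and histotripsy-abscopal tumors, in the 4 fraction and day panels, with 95% confidence intervals and filled points for adjusted p under 0.05. In CD45- cells of day 3 all 10 histotripsy-treated points lie above 0, and the single filled point is Hspa1a in histotripsy-abscopal CD45- cells of day 7, at 2.60.

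On day 7 the CD45- cells of the ablated tumors gave no call either. Hspa1b was at 100.4, 154 and 164 CPM in the 3 histotripsy-treated libraries and at 68.1 to 420 CPM (median 177) in the 11 control libraries. Dnajb1 was at 180, 188 and 189 CPM against 148 to 625 CPM (median 224), and Hspb1 at 16.9, 28.1 and 28.4 CPM against 19.3 to 82.5 CPM (median 41.5). The control libraries covered the values of the ablated tumors for Hspa1b and Dnajb1. Log2 differences were -0.63 ± 0.42, -0.73 ± 0.36 and -0.96 ± 0.37 (adjusted p = 0.924, 0.826 and 0.645). Of the members 0 were called by the 3 tools, 1 had an unadjusted p under 0.05 (Hspb1; 6.08% of all genes), and 0% of all genes were called.

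Histotripsy-abscopal tumors of day 7 held the single call of a member between treatments. Hspa1a was at 1.07, 2.54, 7.98 and 24.1 CPM in the 4 histotripsy-abscopal libraries and at 0 to 3.40 CPM (median 1.44) in the 11 control libraries, so 2 of 4 libraries stood above every control. The log2 difference was 2.60 ± 0.56 (95% confidence interval 1.44 to 3.76, adjusted p = 0.0431), where 0.291% of all genes were called. The call rested on very few libraries. Hspa1a passed the filter on low counts only through its higher libraries, it no longer passed it without replicate 1 or replicate 2, and leaving out any of 9 of the 11 control libraries raised the adjusted p above 0.05, to at most 0.0904. DESeq2, limma-voom and the sum of Hspa1a and Hspa1b (0.42 on the log2 scale) gave no call. Replicate 1, the highest, had the highest summed fibroblast markers of its group (2457 CPM) and the highest summed endothelial markers of all CD45- libraries (93.0 CPM). The other 9 members had log2 differences of -0.13 to 0.38, none with an unadjusted p under 0.05 (9.56% of all genes). Between histotripsy-treated and histotripsy-abscopal tumors 0 members were called by the 3 tools, 0% of all genes were, and 4 members and 6.74% of all genes had an unadjusted p under 0.05. The 4 were Hspa1a (-1.81), Hspa1b (-1.01), Hspb1 (-0.91) and Hsp90ab1 (0.31).

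The same comparisons in CD45+ cells asked about the immune cells of the tumor. On day 3 no member passed the test. The inducible Hsp90aa1 was at 1429, 1452, 1529 and 2027 CPM in control, 1542 to 2626 CPM (median 2025) in histotripsy-treated and 1863 to 3321 CPM (median 2375) in histotripsy-abscopal libraries. Control replicate 1 overlapped both other groups, and the other 3 controls lay below all libraries of both. Log2 differences from control were 0.57 ± 0.19 (adjusted p = 0.0703) and 0.78 ± 0.19 (adjusted p = 0.339). Hsph1, whose protein acts on Hsp70, was at 135, 136, 200 and 208 CPM in control, 159 to 352 CPM in histotripsy-treated and 178 to 530 CPM (median 282) in histotripsy-abscopal libraries. Its differences were 0.73 ± 0.25 (adjusted p = 0.0778) and 0.97 ± 0.25 (adjusted p = 0.339). Dnajb1 differed by 0.50 ± 0.24 and 0.75 ± 0.23 (adjusted p = 0.197 and 0.554), and the constitutive Hsp90ab1 by 0.18 ± 0.21 and 0.43 ± 0.20 (adjusted p = 0.65 and 0.631). Without the 2 histotripsy-abscopal libraries high in melanoma markers the abscopal differences of Hsp90aa1 and Hsph1 were 0.69 and 1.06 (adjusted p = 0.599 and 0.402).

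In histotripsy-treated CD45+ cells of day 3, 0 members were called by edgeR, 2 (Hsp90aa1 and Hsph1) by DESeq2 and 0 by limma-voom, 3 had an unadjusted p under 0.05 (23.9% of all genes), and 7.79% of all genes were called. For histotripsy-abscopal against control all 10 members had log2 differences above 0, with a median of 0.56 against 0.01 for all genes. Of these 0 were called by edgeR, 1 (Hsp90aa1) by DESeq2 and 0 by limma-voom, 5 had an unadjusted p under 0.05 (Hsp90aa1, Hsph1, Dnajb1, Hspa1a, Hsp90ab1; 7.76% of all genes), and 0% of all genes were called. The 2 comparisons share the 4 control libraries. The samples also differed in their cells. Summed neutrophil markers were at 350 to 2667 CPM in control, 768 to 2683 CPM in histotripsy-abscopal and 1271 to 26467 CPM in histotripsy-treated libraries, all 5 of 5 being detected, and summed T cell markers at 625 to 1078, 525 to 780 and 132 to 563 CPM. Their part in these values was not tested.

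The mitochondrial pair gave no call in the ablated tumor either. Hspe1 was at 253 to 260 CPM in the 4 control libraries, a range narrower than in any other group, at 159 to 250 CPM (median 172) in histotripsy-treated and at 127 to 338 CPM (median 297) in histotripsy-abscopal libraries. All 6 histotripsy-treated libraries were thus below all 4 controls in CPM, while the TMM-scaled difference was -0.24 ± 0.19 (adjusted p = 0.49). The share of all genes so separated was not computed. Hspd1 was at 81.0 to 117 CPM in control, 42.5 to 123 CPM in histotripsy-treated and 82.2 to 149 CPM in histotripsy-abscopal libraries, and differed from control by -0.12 ± 0.21 in histotripsy-treated tumors (adjusted p = 0.764), with ranges that overlapped. Against histotripsy-abscopal tumors Hspd1 differed by -0.52 ± 0.18 (adjusted p = 0.0961) and Hspe1 by -0.43 ± 0.17 (adjusted p = 0.159). Without the 2 libraries high in melanoma markers Hspe1 was at -0.52 and was called (adjusted p = 0.0276). All 10 members were below 0 in that comparison, 0 were called by the 3 tools, 2 had an unadjusted p under 0.05 (Hspd1, Hspe1; 18.7% of all genes), and 5.44% of all genes were called. On day 7, 0 members were called in any of the 3 comparisons of CD45+ cells by the 3 tools, 0 had an unadjusted p under 0.05 (3.15%, 7.45% and 2.69% of all genes for histotripsy-treated against control, histotripsy-abscopal against control and histotripsy-treated against histotripsy-abscopal), and 0% of all genes were called in each. Log2 differences there ran from -0.70 to 0.39.

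Whether these effects differed between fractions or days was tested directly. None of the 8 such tests called a member. Between fractions on day 3, the effect of ablation differed at an unadjusted p under 0.05 for Hspa1a (-2.26, CD45+ minus CD45-) and Hspa1b (-1.13), where 16.1% of all genes had such a p and 1.92% were called. For the abscopal effect it did so for Hsp90aa1 (0.60), where 5.74% of all genes had such a p and 0% were called. On day 7 it did so for 0 members for ablation (4.84% of all genes, 0% called) and for Hspa1a (-2.28 ± 0.65, adjusted p = 0.15) for the abscopal effect (8.94% of all genes, 0.0233% called). Without the libraries high in markers of other cells, the day 3 value of Hspa1a was 0.73 in place of -2.26. Its day 7 value for the abscopal effect was then -0.93 (adjusted p = 0.827) in place of -2.28.

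Between days, 9 of 10 members had a lower estimate of the effect of ablation on day 7 than on day 3 in CD45- cells. Hspa1b differed by -2.01 ± 0.59 (adjusted p = 0.406), Dnajb1 by -1.70 ± 0.54 (adjusted p = 0.478), Hspb1 by -1.54 ± 0.47 (adjusted p = 0.434), Hsph1 by -0.84 and Hspa8 by -0.50. These 5 and 6.02% of all genes had an unadjusted p under 0.05, 0 members were called, and 0% of all genes were. For the abscopal effect in CD45- cells the count at an unadjusted p under 0.05 was 1 (Hsp90ab1, -0.32; 6.87% of all genes), and 0.00866% of all genes were called. In CD45+ cells it was 2 for ablation (Hsph1 -0.92, Hsp90aa1 -0.72, with 15.8% of all genes at such a p and 2.68% called) and 2 for the abscopal effect (Hsp90aa1 -0.57, Hspd1 -0.62, with 6.48% at such a p and 0% called).

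Relations of the members to Hspa1b within groups differed by member. After removal of group means, the level of each of the other 9 members, and the mean of 15 immediate early genes, was related to that of Hspa1b over the libraries of each table (n = 18, 18, 17 and 17 for CD45- day 3, CD45- day 7, CD45+ day 3 and CD45+ day 7, in that order below). Of these 40 relations 24 (7, 6, 4 and 7 of 10 in the 4 tables) had an adjusted p under 0.05 by a permutation test with 100000 permutations. When the 2 libraries farthest from the median of Hspa1b were left out, 16 did. The share of all genes with such a relation was not computed, so the count does not set the members apart. By r with Hspa1b with group means kept, Dnajb1 ranked 3, 1, 29 and 820 among 10920, 10995, 10263 and 10816 genes. Hspd1 ranked 19, 502, 259 and 689. Dnajb1 had Pearson r = 0.85, 0.90, 0.74 and 0.55 and Spearman rho = 0.87, 0.92, 0.74 and 0.44, with permutation p for r adjusted over the 40 relations of 0.001, 0.0006, 0.00205 and 0.0271. The adjusted p for rho was 0.00107, 0.0004, 0.0049 and 0.11. Without the 2 farthest libraries r was 0.75, 0.94, 0.64 and 0.47. Hsph1 had r = 0.88, 0.72, 0.76 and 0.72 (rho = 0.89, 0.67, 0.74 and 0.63), and Hspe1 r = 0.58, 0.78, 0.81 and 0.79 (rho = 0.47, 0.76, 0.61 and 0.73), all with an adjusted p for r under 0.05. The r of Hspe1 in CD45+ cells of day 3 fell to 0.36 without the 2 farthest libraries, so that relation rests on them.

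The r of Hsp90ab1 with Hspa1b was 0.11, -0.19, -0.52 and -0.47, and none of these passed (adjusted p = 0.651, 0.402, 0.0715 and 0.0768). Hsp90aa1 had r = 0.62, 0.53, -0.06 and 0.32. The relation of Hspa1a to Hspa1b passed in CD45+ cells (r = 0.86 and 0.87, adjusted p = 0.0007 and 0.0006), and in CD45- cells it did not pass (r = -0.32 and -0.17, adjusted p = 0.322 and 0.578). Immediate early genes respond within minutes to many stimuli and include transcription factors such as Fos and Jun. The mean of their list had r = 0.34, 0.80, 0.52 and 0.69 with Hspa1b (adjusted p = 0.243, 0.0007, 0.0709 and 0.00849).

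**Figure D4:**
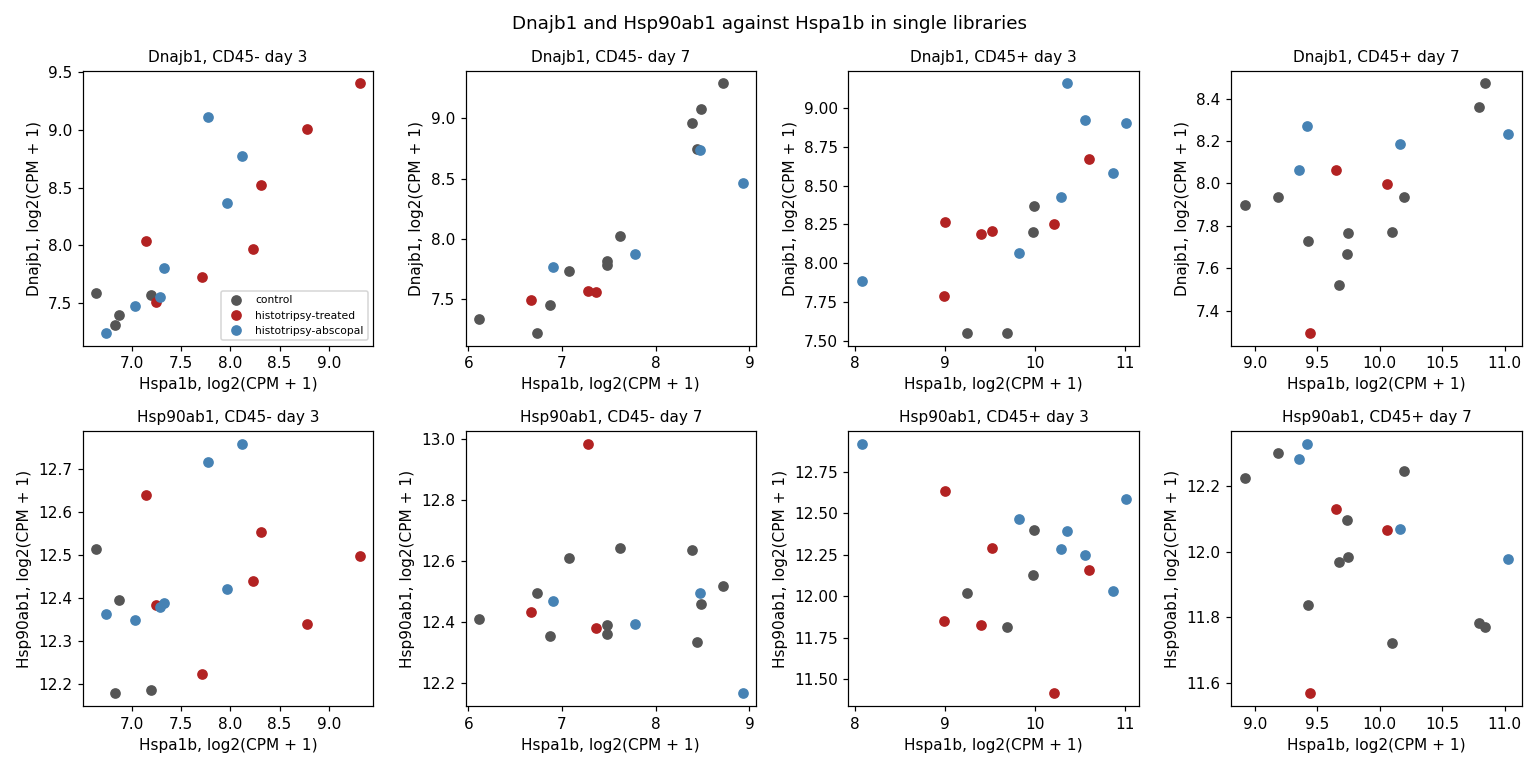
Level of Dnajb1 (top) and Hsp90ab1 (bottom) against that of Hspa1b in each library, as log2(CPM + 1), for the 4 tables, with colours for treatment. Dnajb1 is higher where Hspa1b is higher in all 4 tables (r = 0.55 to 0.90 after removal of group means), while r for Hsp90ab1 is -0.52 to 0.11.

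In CD45- cells the level of Hspa1a was set beside the summed markers of other cells after the 4 highest libraries of day 3 had been seen to be those high in fibroblast markers, so the values are a description and carry no test. With the fibroblast sum Hspa1a had r = 0.82 (rho = 0.85) on day 3 and r = 0.69 (rho = 0.74) on day 7, over 18 libraries each and after removal of group means. With the endothelial sum it had r = 0.68 and 0.90 (rho = 0.66 and 0.83), and with the melanoma sum r = -0.23 and -0.05. Without the 2 libraries with the most extreme marker sums, r was 0.81 and 0.57 for fibroblast and 0.55 and 0.79 for endothelial markers. Hspa1b had r = -0.43 and -0.45 with the fibroblast sum. Hspa1a rests on a median of 5 counts per library here, and both sums come from the same libraries.

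**Figure D5:**
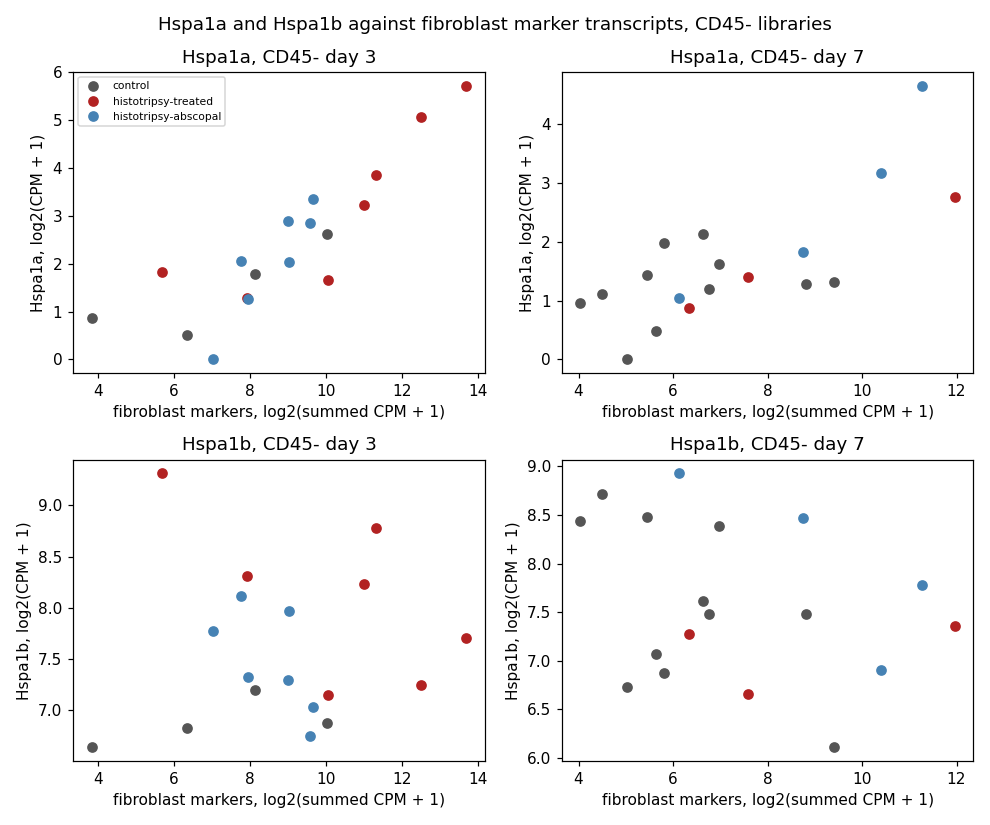
Level of Hspa1a (top) and Hspa1b (bottom), as log2(CPM + 1), against the summed level of 5 fibroblast markers, as log2(summed CPM + 1), in each CD45- library of day 3 and day 7, with colours for treatment. Hspa1a reaches 51.9 CPM in the library with 13238 CPM of fibroblast markers, and r for Hspa1b is -0.43 and -0.45.

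The genes whose pattern over libraries was most like that of Hspa1b, by Pearson r of log2 CPM over all libraries of a table and outside the members, were Dnaja1 (0.89), Jun (0.83) and Atf3 (0.81) in CD45- day 3 (18 libraries). They were Dnajb4 (0.86), Zfand2a (0.85) and Jun (0.83) in CD45- day 7 (18 libraries), Ccr7 (0.82), Zcchc8 (0.77) and Arhgap17 (0.77) in CD45+ day 3 (17 libraries), and Vegfa (0.85), Odc1 (0.85) and Dnaja1 (0.84) in CD45+ day 7 (17 libraries). For Hspd1 they were N4bp2, Eif4ebp2 and Zdhhc6 (0.83 to 0.85), Hells, Cenpl and Oma1 (0.77 to 0.80), Arl5a, Cdc7 and Izumo1r (0.84 to 0.87), and Gpr85, Gm34220 and Yme1l1 (0.78 to 0.79), in the same order. These are the top ranks among all genes tested and are given as descriptions.

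The wider chaperone network was read from fixed lists without the members. Between fractions in control tumors of day 3, all 8 CCT chaperonin subunits, which fold actin and tubulin, were lower in CD45+ cells, Cct7 with a log2 difference of -1.48 (adjusted p = 2.85e-11), and all 8 were lower in the other 5 comparisons as well. Of 20 Hsp70 co-chaperones tested there 2 were higher (Dnajb4 0.52, Dnajb6 0.45) and 9 lower (Bag2 -3.54, Bag5 -1.72, Hspa4 -1.40). Of 12 Hsp90 co-chaperones 2 were higher (Unc45a 0.68, Sugt1 0.48) and 4 lower (Fkbp4 -2.64, Ppid -1.07, Ptges3 -0.65). The list medians were -0.62, -0.37 and -0.09 against 0.04 for all genes.

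Of 10 genes in the list of small heat shock proteins and heat shock factors, 1 was higher in CD45+ cells, Hmox1 (1.46), which encodes heme oxygenase. Serpinh1, the collagen chaperone Hsp47 (-6.46), and Cryab, the alpha B crystallin chain (-5.51), were among the 6 lower. Of 10 mitochondrial proteostasis genes 2 were higher (Hscb 1.11, Afg3l2 0.48) and 3 lower (the proteases Lonp1 -1.45, Clpp -0.97 and Spg7 -0.70), and of 14 endoplasmic reticulum chaperones 3 were higher (Dnajb9 0.69, Dnajb11 0.47, Hspa5 0.43) and 5 lower (Pdia4 -1.63, Canx -0.94, Dnajc3 -0.72). Of 15 immediate early genes 14 were higher, led by Btg2 (5.90), and 0 lower. The shares called over the genome, 34.5% higher and 30.6% lower, apply here as they do to the members.

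Between treatments few genes of these lists passed. In CD45- cells of day 3, Atf3, a stress-induced transcription factor, was higher in histotripsy-treated than in control tumors (1.21 ± 0.22, adjusted p = 0.0272), and it was the 1 call among the genes of the 7 lists, where 0.0916% of all genes were called. All 15 immediate early genes were above 0 in that comparison, with a median of 0.76, and all 14 endoplasmic reticulum chaperones, with a median of 0.20, against 0.01 for all genes. Egr1 was at 126 to 340 CPM in the histotripsy-treated libraries with fibroblast markers above 2000 CPM. In the other histotripsy-treated libraries it was at 68.9 to 72.8 CPM. Atf3 was at 83.5 to 152 CPM and 109 to 157 CPM in the same order. The part of fibroblast markers in these values was not tested. The CCT, Hsp70 co-chaperone and mitochondrial lists had medians of 0.00, 0.02 and 0.02. Hsf1 was at 9.39 to 26.2 CPM in CD45- and 7.06 to 29.1 CPM in CD45+ libraries and differed by 0.12 ± 0.22 (adjusted p = 0.924). In the other 5 treatment comparisons of CD45- cells 0 genes of the 7 lists were called.

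In CD45+ cells of day 3, Hspa4l, an Hsp110 relative of Hsph1, was higher in histotripsy-treated than in control tumors (1.85 ± 0.35, adjusted p = 0.00391), as were Dnajb2 (0.92 ± 0.25, adjusted p = 0.0236) and the endoplasmic reticulum J-domain gene Dnajb9 (1.43 ± 0.32, adjusted p = 0.00908). Immediate early genes were higher for 6 of 15, led by Ier3 (1.71), Egr1 (1.38) and Fosb (1.14). Cct6a was lower (-0.55 ± 0.14, adjusted p = 0.0213), and all 8 CCT and all 10 mitochondrial proteostasis genes were below 0, with medians of -0.28 and -0.22 against -0.01 for all genes. Over all genes 7.79% were called in that comparison. Neutrophil markers summed to a median of 4246 CPM and at most 26467 CPM in these histotripsy-treated libraries, against at most 2667 CPM in control, and T cell markers to a median of 381 CPM against 750 CPM, and their part in the calls was not tested. Against histotripsy-abscopal tumors, where 5.44% of all genes were called, Hspa4l (1.26), Dnajb9 (1.20) and 5 immediate early genes were higher. In the abscopal comparison of day 3 and the 3 comparisons of day 7, 0 genes of the 7 lists were called in CD45+ cells.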

How the data were processed

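RNA of sorted CD45+ and CD45- cells was sequenced at the 3′ ends of transcripts (QuantSeq, with unique molecular identifiers). Per the labels and the submitters' processing notes, the authors trimmed reads with Trim Galore (0.5.0), aligned them to mouse GRCm38 with STAR (2.6.0), counted them with featureCounts and deposited raw counts per gene; the annotation release and the strand and multiple-mapping settings are not given in the sources used here. The 2 CD45+ tables each held 1 unnamed line of column totals (100% of the summed counts), which was left out. Of the lines of each table, 120 repeat the symbol of an earlier line, and no member is among them. Columns without a sample numbered 0.

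Counts were tested with edgeR (4.0.16, R 4.3.3): TMM scaling, filterByExpr (minimum count 10, minimum total 15), 1 term per group, quasi-likelihood tests, Benjamini-Hochberg adjustment over all genes tested and a threshold of 0.05. The 3 treatments of a fraction and day shared 1 fit, and the fits between fractions or days held 6 groups. DESeq2 (1.42.0), limma-voom (3.58.1), library totals as scaling, no filter, only the groups compared, libraries of at least 1000000 counts, the replicate number as a block, leaving out each library and the sum of Hspa1a and Hspa1b were tried as alternatives. Leaving out 8 libraries high in markers of other cells (over 2000 CPM for fibroblast markers in CD45-, over 1000 CPM for melanoma markers in CD45+ cells) was chosen after seeing the data. Tested on simulated data for histotripsy-treated against control in CD45- cells of day 3 (10777 genes), 69.7% of 2-fold and 97.9% of 4-fold changes were recovered. The simulated set held 99 genes changed 2-fold and 95 changed 4-fold, while 10 of 10921 genes were called in the comparison itself. Fewer changed genes make the adjusted threshold stricter, so these rates are not the power for the members.

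The members and gene lists were chosen with earlier results of these data known. All 10 members are named. Of each list up to 3 called genes in each direction are named per comparison, those with the largest log2 fold change among genes of at least 10 CPM, and Hsf1 whatever its value. Log2 CPM for relations between genes used TMM scaling and a prior count of 2. Promoter windows are from RefSeq (GRCm38.p6) and gene coordinates from GENCODE annotation of GRCm38. Whether shared replicate numbers mark pairs was checked by the correlation of deviations from group means, and all pairs were over 0.1 in 1 comparison, between fractions in histotripsy-abscopal tumors of day 7 (4 of 4, lowest 0.111). Replicate libraries were compared over 208 pairs within groups, and none agreed within sampling noise (smallest chi-square per degree of freedom 2.09).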

Additional observations from a re-analysis of the deposited data

Results flagged for a closer look

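Dixon's test of the highest or lowest library was applied to 90 sets, each member in each group of 4 to 10 libraries, and 4 passed, about as many as the 1 in 20 groups that chance gives. Hsp90aa1 was at 2027 CPM in CD45+ day 3 control replicate 1, where the other 3 controls were at 1429 to 1529 CPM. Hspe1 was at 127 CPM in CD45+ day 3 histotripsy-abscopal replicate 1, where the other libraries were at 248 to 338 CPM. That library also had the lowest Hspa1b of the CD45+ fraction, at 268 CPM, and the highest Hsp90ab1, at 7758 CPM, and its summed melanoma markers were at 1169 CPM. Hspb1 was at 29.8 CPM in CD45+ day 7 control replicate 9, where the other 9 controls were at 7.37 to 17.5 CPM. Hspa1a was at 1957 CPM in CD45+ day 7 histotripsy-abscopal replicate 3, where the other 3 libraries were at 1100 to 1245 CPM, and Hspa1b was highest in the same library, at 2090 CPM. Of 80 tests of a difference in effect between fractions or days, 0 passed and 14 had an unadjusted p under 0.05.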

How the results depend on the processing

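Counts of members called are given first. Without a filter on low counts, which raised the genes tested to 28569 to 34177, the counts for histotripsy-treated against control were 4 (CD45- day 3), 1 (CD45- day 7) and 1 (CD45+ day 3), for histotripsy-treated against histotripsy-abscopal 2 (CD45- day 3) and 1 (CD45+ day 3), and for histotripsy-abscopal against control 3 (CD45+ day 3). The differences of effect then gave 2 (ablation between fractions, day 3), 3 and 1 (ablation between days, CD45- and CD45+) and 1 (abscopal effect between fractions, day 7). DESeq2 gave 2 and 1 for histotripsy-treated and histotripsy-abscopal against control in CD45+ cells of day 3. The 1 call of histotripsy-abscopal against control in CD45- cells of day 7 became 0 with DESeq2, limma-voom and the sum of Hspa1a and Hspa1b. It was 0 to 1 when 1 library was left out. The count was also 0 with only the groups compared and without the libraries high in markers of other cells, but Hspa1a was not tested there. Without those libraries the count for histotripsy-treated against histotripsy-abscopal in CD45+ cells of day 3 was 1. Leaving out 1 library gave 0 to 1 for that comparison (Hspe1 without histotripsy-abscopal replicate 1, Hspd1 without histotripsy-treated replicate 5), for histotripsy-treated against control in CD45+ cells of day 3 (Hsp90aa1 without control replicate 1) and for the abscopal effect between fractions on day 7 (Hspa1a without CD45- histotripsy-abscopal replicate 3). The cause of these moves was not tested. Counts between fractions stayed within 6 to 9 in all alternatives.

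Same-numbered libraries correlated on average by -0.245 to 0.207 in their deviations from group means. In no treatment comparison were all pairs over 0.1, so the numbers were not taken to pair samples there. This check cannot exclude pairing. On day 3 histotripsy-abscopal and histotripsy-treated CD45- libraries averaged 0.135 for the same number and -0.0222 for other numbers. On day 7 these were -0.245 and 0.0787. The CD45- fraction holds more libraries than the CD45+ fraction in histotripsy-treated tumors of day 3 and controls of day 7. Equal numbers there need not mark the same tumor, and the replicate block can join different tumors. Between the fractions of histotripsy-abscopal tumors of day 7 all 4 pairs were over 0.1, and the count with the replicate block was 6, as without it. With the replicate block the count was 1 for histotripsy-treated against histotripsy-abscopal in CD45- (Hspa8, adjusted p = 0.0444) and CD45+ cells of day 3 (Hspd1, 0.0385), 1 for histotripsy-treated against control in CD45+ cells of day 3 (Hsp90aa1, 0.0467) and 0 for histotripsy-abscopal against control in CD45- cells of day 7 (Hspa1a, 0.582). It also added Hsp90aa1 between fractions in histotripsy-treated tumors of day 3 (-0.34, 0.0178) and changed no other call.

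Only member results with an unadjusted p under 0.05 were followed through the alternatives, and directions turned in 4 of them. Without the libraries high in markers of other cells, Hspa1a in CD45- cells of day 3 was at -0.14 against control and -1.25 against histotripsy-abscopal tumors, and its difference between fractions at 0.73. With library totals, Hspa8 between fractions in histotripsy-treated tumors of day 3 was at -0.037. Calls between fractions were lost for Hsph1 in control tumors of day 3 (limma-voom, library totals, 5 of the single libraries left out), Dnajb1 in histotripsy-abscopal tumors of day 3 (library totals, without CD45+ replicate 4) and Hsp90ab1 in histotripsy-treated tumors of day 7 (only the groups compared, 2 of the single libraries left out). In histotripsy-treated tumors of day 3 Hsph1 lost its call with library totals, and Hspa8 with library totals, without a filter and without the libraries high in markers of other cells (0.30). Relations with Hspa1b that passed numbered 24 of 40, 28 with library totals, 24 with libraries of at least 1000000 counts and 26 of 36 with Hspa1a and Hspa1b summed. At these depths Hspa1a in CD45- cells rests on a median of 5 counts per library.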
